A study of Mus musculus with 9 samples.

Results

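The transition from G1 to S phase is run by a small set of genes, and 10 of them were followed here across 3 cultured mouse stem cell types. They were taken by symbol from the deposited count table: the D-type cyclins Ccnd1, Ccnd2 and Ccnd3, the E-type cyclins Ccne1 and Ccne2, the kinases Cdk4, Cdk6 and Cdk2, and the inhibitors Cdkn1b and Cdkn2a. All 10 were found among the 54532 Ensembl genes of the table, and all 10 passed the filter on low counts that left 16178 genes for testing. The cells came from blastocysts of Sv129 x GOF/GFP F1 mice and grew without serum on fibronectin in N2B27-type medium. AFSC were derived and kept in Act A (Activin A) and bFGF, are labelled as similar to epiblast stem cells, and were at passage 15 to 20. ALSC were obtained from AFSC by over 5 passages in AL medium, taken here as Act A with LIF because the protocol prints that recipe under another medium's abbreviation, and were at passage 20 to 25. ABSC were obtained from AFSC in the same way in Act A with BMP4, are labelled as similar to trophoblast stem cells, and were at passage 25 to 30. Passage therefore cannot be told apart from cell type, and all 3 cell types share Activin A. Each cell type had 3 libraries, numbered 1 to 3. The labels do not say whether libraries of a cell type came from separate cultures or cell lines, so each p-value measures only the spread between these libraries.

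Mitogen and morphogen signals act on G1 mainly through the D-type cyclins, which bind Cdk4 or Cdk6 and start the phosphorylation of the retinoblastoma proteins. Cyclin E with Cdk2 completes that step once E2F factors are released, Cdkn1b (p27Kip1) restrains cyclin E-Cdk2, and Cdkn2a encodes both an INK4 inhibitor of Cdk4 and Cdk6 and the ARF protein that acts through p53. Pluripotent cells of the mouse are known for a short G1, with little D-type cyclin in naive embryonic stem cells and more of it in cells of the epiblast after implantation.

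The 3 D-type cyclins are paralogs that carry the same retinoblastoma-binding motif at the start of the protein, leucine-x-cysteine-x-glutamate. The first 60 coding bases of each are shown because the difference found for Ccnd2 requires that reads of the 3 genes can be told apart. Capitals mark the 5 codons from the leucine to the glutamate. The sequences are from GENCODE M21 transcripts on build GRCm38, read 5′ to 3′ on the coding strand. They lie at chr7:144939634-144939693 on the minus strand for Ccnd1, chr6:127150714-127150773 on the minus strand for Ccnd2 and chr17:47593655-47593714 on the plus strand for Ccnd3, each within 1 coding exon.
Ccnd1: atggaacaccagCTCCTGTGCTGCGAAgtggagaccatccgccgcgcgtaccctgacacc
Ccnd2: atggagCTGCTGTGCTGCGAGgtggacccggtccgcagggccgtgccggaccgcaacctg
Ccnd3: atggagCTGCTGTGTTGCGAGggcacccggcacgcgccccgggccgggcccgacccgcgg
The motif was searched in frame on the coding strand, with every codon of the 3 named residues allowed. It occurred 1 time in the whole coding sequence of each D-type cyclin and 0 times in those of the other 7 genes. Among 22007 coding genes, 30 (0.136%) held it within their first 60 coding bases. Over the aligned coding bases, Ccnd1 and Ccnd2 were 72.48% identical, Ccnd2 and Ccnd3 70.57%, and Ccnd1 and Ccnd3 68.68%. The longest run of identical bases that any pair of D-type cyclin transcripts shared was 20 bases, between Ccnd1 and Ccnd2, against reads of 150 bases. The E-type cyclins were 63.0% identical with a longest shared run of 18 bases, and Cdk4 and Cdk6 were 70.94% identical with a run of 20 bases.

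Total counts per library ran from 18978651 to 21578737 over Ensembl genes. Levels are given as CPM, the deposited counts divided by library sizes that were scaled by TMM, and differences as log2 fold changes from edgeR's quasi-likelihood test. The words rose and fell are kept for a Benjamini-Hochberg adjusted p, over all 16178 genes, under 0.05. The comparisons of ABSC and of ALSC with AFSC share the 3 AFSC libraries. Of 8 epiblast stem cell markers, 8 were at a mean of 1 CPM or more in each cell type. Their summed level was 1707 to 1974 CPM, with Pou5f1 the largest part, at 1074, 935 and 1226 CPM in AFSC, ALSC and ABSC. In that order, Fgf5 averaged 189, 147 and 16.3 CPM, Pou3f1 77.7, 29.4 and 54.0, and Sox2 25.3, 11.9 and 16.1. Nanog averaged 139, 250 and 180.5 CPM, Otx2 196, 197 and 155, Sox3 154.5, 158 and 161, and Foxd3 50.7, 31.65 and 50.9. Of 8 trophoblast stem cell markers, 6 reached a mean of 1 CPM in ABSC, 4 in AFSC and 5 in ALSC. Their summed level was 284.7 to 362.9 CPM in AFSC, 235.9 to 358.8 CPM in ALSC and 534.2 to 652.9 CPM in ABSC. Hand1 averaged 0.240 CPM in AFSC, 2.08 in ALSC and 213 in ABSC, Krt8 104, 67.4 and 156, and Cdx2 0.126, 0.0858 and 4.45. Hand1 was the largest single part of the ABSC sum. In the same order, Eomes averaged 122, 127 and 117 CPM, Esrrb 102, 100 and 102, and Tfap2c 3.79, 18.7 and 8.64. Elf5 and Gata3 were at or near 0 in all 3 cell types, with means of 0.0332 and 0.750 CPM in ABSC, although the label names trophoblast stem cells. The BMP target Id1 averaged 2.08, 3.7 and 59.8 CPM in AFSC, ALSC and ABSC. Of the other BMP targets, Id2 averaged 6.54, 1.665 and 30.2 CPM and Id3 28.5, 37.4 and 42.1, in that order. The LIF target Socs3 averaged 3.60, 47.7 and 5.65 CPM, and the LIF target Tfcp2l1 21.3, 109 and 25.9. Fibroblast markers summed to 10.32 to 25.27 CPM over all libraries. These are bulk libraries, in which a change in the share of cells that transcribe a gene and a change in its RNA per cell cannot be told apart.

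Ccnd2 was the D-type cyclin that separated the BMP4 cells from the others. Ccnd2 (ENSMUSG00000000184, chr6:127125162-127152193, minus strand), a cyclin D known for its induction by growth factors, stood at 38.2, 31.6 and 29.9 CPM in AFSC 1, 2 and 3. It stood at 43.3, 22.7 and 23.8 CPM in ALSC and at 149, 139 and 136 CPM in ABSC. Every ABSC library was above every AFSC and ALSC library, while the AFSC and ALSC libraries overlapped. The group means were 33.3 ± 4.39 CPM in AFSC, 29.9 ± 11.6 CPM in ALSC and 141 ± 7.20 CPM in ABSC (SD, n = 3 each). Ccnd2 rose in ABSC against AFSC by 2.09 on the log2 scale (SE 0.218, 95% interval 1.60 to 2.57), a fold of 4.25, with an edgeR adjusted p of 0.000387. It rose in ABSC against ALSC by 2.24 (SE 0.219, interval 1.75 to 2.73), a fold of 4.71, with an edgeR adjusted p of 0.00024. Antisense genes that overlap the locus held 0 or 1 count per library.

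Since every ABSC library lay above all others, the Ccnd2 difference had to be positive at each library number, and only its size could vary. ABSC minus AFSC was 1.97, 2.14 and 2.18 on the log2 scale in libraries 1, 2 and 3, and ABSC minus ALSC was 1.79, 2.62 and 2.51. The smallest of these came from ALSC 1, the ALSC library with the highest Ccnd2. Over 16 alternative analyses the ABSC-AFSC difference ranged from 2.02 to 2.20 and the ABSC-ALSC difference from 2.08 to 2.61, and Ccnd2 was called in 16 of 16 of each. ALSC against AFSC gave -0.15 for Ccnd2 (interval -0.63 to 0.34, edgeR adjusted p = 0.763), but this value depended on 1 library. Without ALSC 1 it was -0.52 with an edgeR adjusted p of 0.0231, and without the 3 libraries numbered 1 it was -0.41 with an edgeR adjusted p of 8.39e-05.

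In the fit of all 9 libraries without library number, neither Ccnd1 nor Ccnd3 was called in any comparison. Ccnd1 (ENSMUSG00000070348, chr7:144929931-144939925, minus strand), the D-type cyclin with the highest CPM of the 3 in AFSC, stood at 172, 191 and 197 CPM in AFSC, at 123, 167 and 165 CPM in ALSC and at 137, 182 and 165 CPM in ABSC. Every ALSC library was below every AFSC library, while ABSC 2 lay inside the AFSC range. The differences in that fit were -0.21 in ABSC against AFSC (interval -0.50 to 0.08, edgeR adjusted p = 0.445), -0.30 in ALSC against AFSC (interval -0.59 to -0.01, edgeR adjusted p = 0.219) and 0.09 in ABSC against ALSC (interval -0.20 to 0.38). Libraries numbered 1 stood apart from numbers 2 and 3 by their correlations, so a fit with library number as a block was also run. In it Ccnd1 was called lower than in AFSC both in ABSC (-0.22, edgeR adjusted p = 0.0174) and in ALSC (-0.31, edgeR adjusted p = 0.00175). Ccnd1 overlaps Oraov1 on the other strand, which held 201 to 238 counts per library.

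Ccnd3 (ENSMUSG00000034165, chr17:47505051-47599691, plus strand), known as the most broadly expressed D-type cyclin, stood at 63.5, 55.6 and 55.1 CPM in AFSC, at 75.4, 56.4 and 55.9 CPM in ALSC and at 81.1, 68.5 and 60.5 CPM in ABSC. The ranges of the 3 cell types overlapped, and library 1 was the highest within each of them. Ccnd3 differed by 0.27 in ABSC against AFSC (interval -0.04 to 0.58, edgeR adjusted p = 0.316), and its blocked value of 0.26 was called, with an edgeR adjusted p of 0.00777. In ALSC against AFSC the difference was 0.11 (interval -0.20 to 0.42), and in ABSC against ALSC it was 0.16 (interval -0.14 to 0.47). The Ccnd3 locus overlaps Bysl on the other strand, which held 2110 to 3049 counts per library, and the library kit does not mark strand. A Ccnd3 pseudogene held 0 to 5 counts.

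**Figure D1:**
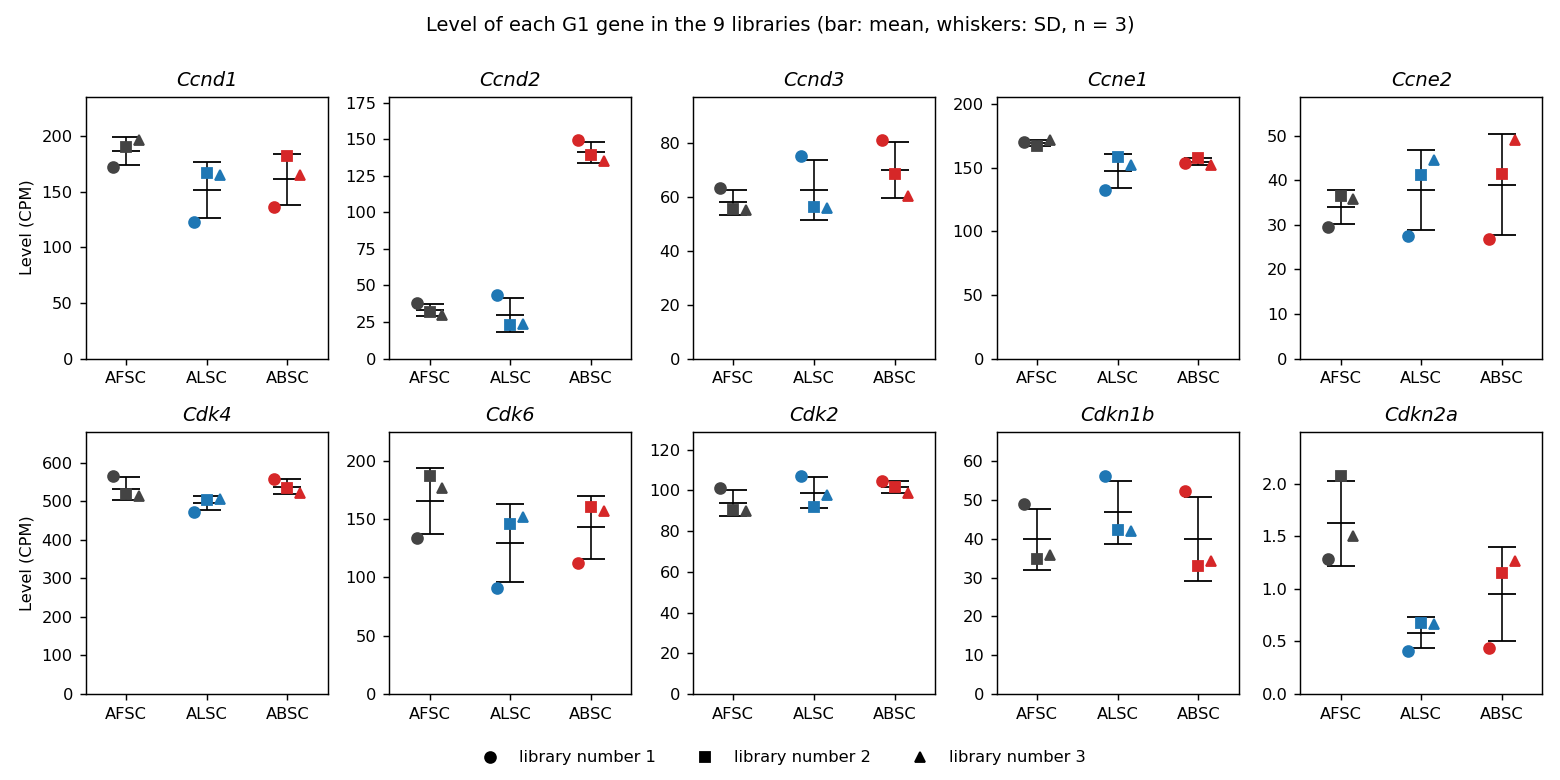
Level of each of the 10 genes in CPM (vertical axes, each starting at 0) in AFSC, ALSC and ABSC. Points are single libraries, with the shape giving the library number, and bars are means with SD (n = 3). Ccnd2 in ABSC, at 136 to 149 CPM, lies above every AFSC and ALSC library, which reach at most 43.3 CPM.

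To compare the 3 D-type cyclins with each other, CPM was divided by gene length, and each gene's share of the summed D-type cyclin level was taken within a library. On the gene length given in the table, Ccnd2 made up 8.48%, 6.69% and 6.21% of the sum in AFSC 1, 2 and 3 and 11.7%, 5.45% and 5.76% in ALSC. In ABSC its share was 29.3%, 24.1% and 25.5%, with no overlap with either other cell type. The share of Ccnd1 was 79.5% ± 2.75 in AFSC, 75.4% ± 7.80 in ALSC and 59.7% ± 5.25 in ABSC (SD, n = 3). Its ABSC libraries, at 53.6%, 63.1% and 62.2%, all lay below the AFSC and ALSC libraries, whose lowest was ALSC 1 at 66.4%. The share of Ccnd3 was 13.3% ± 1.55 in AFSC, 17.0% ± 4.27 in ALSC and 14.0% ± 2.66 in ABSC, and these ranges overlapped.

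The D-type cyclin total was larger in ABSC. The summed level was 57.3 ± 3.62 CPM per kb in ABSC, 49.8 ± 1.68 in AFSC and 42.5 ± 2.83 in ALSC (SD, n = 3), and the ranges of the 3 cell types did not overlap. The Ccnd2 to Ccnd1 ratio was 0.446 ± 0.0879 in ABSC, 0.0900 ± 0.0185 in AFSC and 0.106 ± 0.0615 in ALSC. Ccnd1 thus had the highest level per kb of the 3 in every ABSC library on this scale, and the composition shifted towards Ccnd2 without Ccnd2 passing Ccnd1.

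The length chosen for each gene affects this comparison. The table gives Ccnd3 a length of 8775 bases, while its principal transcript in GENCODE M21 has 2113 bases. For Ccnd1 these lengths are 4709 and 3740 bases, and for Ccnd2 they are 9409 and 6330 bases. Per kb of principal transcript, Ccnd2 made up 22.7% ± 1.31 of the sum in ABSC, 6.36% ± 0.876 in AFSC and 6.31% ± 2.40 in ALSC. The step in Ccnd2 was therefore present on both scales, and the ABSC range of 21.3% to 23.9% again did not overlap the others. The rank of Ccnd3 was not stable: in ABSC it lay below Ccnd2 per kb of table length, at 14.0% against 26.3%, and above it per kb of principal transcript, at 33.6% against 22.7%. On the transcript scale Ccnd3 also exceeded Ccnd1 in ABSC 1 (39.0% against 37.1%) and ALSC 1 (47.4% against 43.5%), and Ccnd1 was the highest of the 3 in the other 7 libraries.

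**Figure D2:**
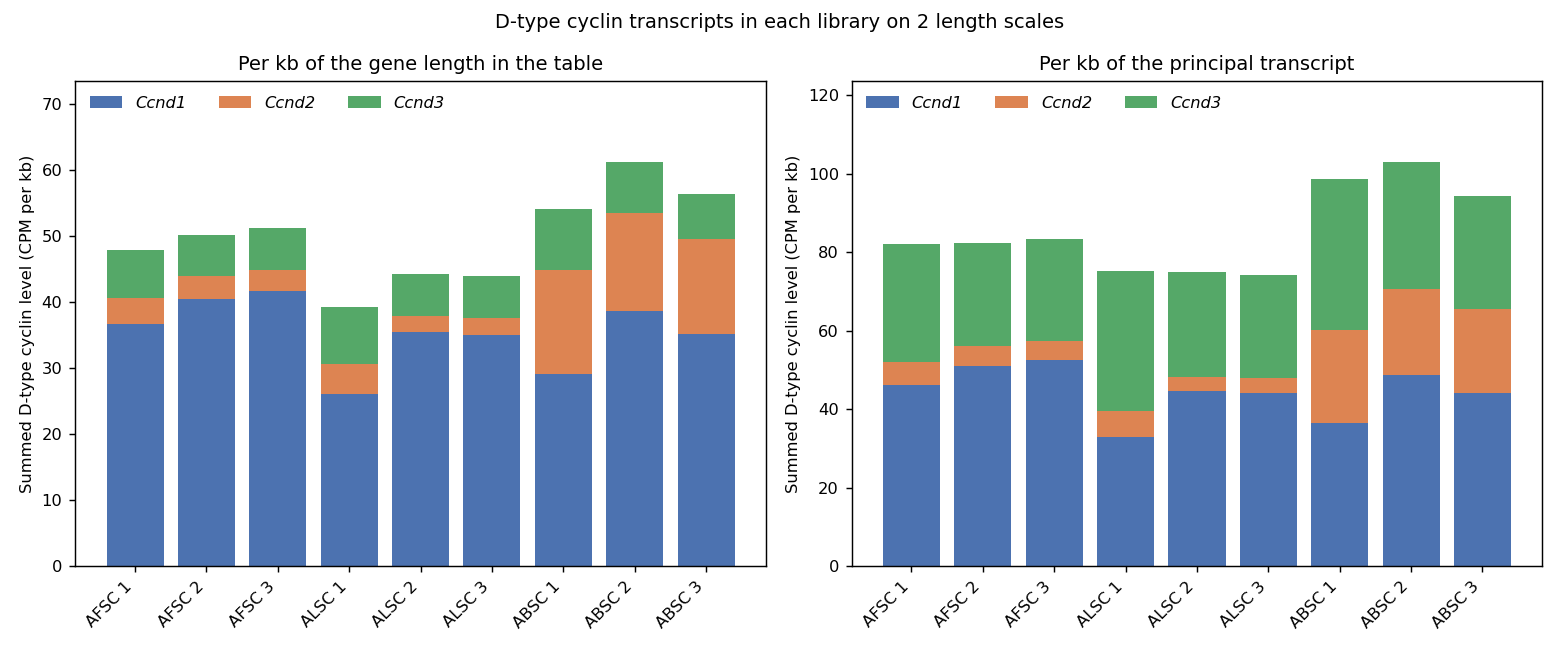
Summed level of the 3 D-type cyclins in each library (vertical axes in CPM per kb, starting at 0), stacked by gene, with levels per kb of the gene length in the table on the left and per kb of the principal transcript on the right. The Ccnd2 segment is 24.1% to 29.3% of the bar in ABSC on the left and 21.3% to 23.9% on the right, and at most 11.7% and 9.08% in the other libraries.

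Neither E-type cyclin was called in any comparison in the fit of all 9 libraries without the block. Ccne1 (ENSMUSG00000002068, chr7:38097984-38107534, minus strand), an activator of Cdk2 at the start of S phase, stood at 170.3, 167 and 172 CPM in AFSC, at 133, 158 and 152 CPM in ALSC and at 154, 158 and 152 CPM in ABSC. All AFSC libraries lay above all others, by a small margin. The differences from AFSC were -0.13 in ABSC (interval -0.28 to 0.02, edgeR adjusted p = 0.325) and -0.20 in ALSC (interval -0.35 to -0.05, edgeR adjusted p = 0.115), and the blocked value in ALSC, also -0.20, was called with an edgeR adjusted p of 0.0187. ABSC against ALSC gave 0.07 (interval -0.08 to 0.22). Ccne2 (ENSMUSG00000028212, chr4:11191351-11204779, plus strand), the second E-type cyclin, stood at 29.5, 36.5 and 35.9 CPM in AFSC, at 27.6, 41.1 and 44.6 CPM in ALSC and at 26.8, 41.4 and 49.0 CPM in ABSC. Its cell types overlapped and its spread was mostly between library 1 and the other two. Its differences were 0.20, 0.15 and 0.05 in ABSC against AFSC, ALSC against AFSC and ABSC against ALSC, with intervals of -0.30 to 0.70, -0.35 to 0.66 and -0.45 to 0.55, and it was called in none of the 3 in the fits of all 9 libraries, with or without the block. Without the libraries numbered 1 it was called against AFSC in ABSC (0.33, edgeR adjusted p = 0.00198) and in ALSC (0.24, edgeR adjusted p = 0.0232). Its locus overlaps Ints8 on the other strand, which held 1732 to 2235 counts.

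Among the kinases, Cdk4 was the most abundant transcript per kb of all 10 genes in every library. Cdk4 (ENSMUSG00000006728, chr10:127063534-127067920, plus strand), a catalytic partner of the D-type cyclins, stood at 566, 519 and 513 CPM in AFSC, at 473, 504 and 506 CPM in ALSC and at 558, 534 and 521 CPM in ABSC. The ALSC libraries were the lowest and did not overlap either other cell type, but the size of the difference was small. It was -0.11 against AFSC (interval -0.23 to 0.02, edgeR adjusted p = 0.313), ABSC stood 0.12 above ALSC (interval -0.004 to 0.25, edgeR adjusted p = 0.207), and ABSC against AFSC gave 0.01 (interval -0.11 to 0.14). Cdk6 (ENSMUSG00000040274, chr5:3341485-3531008, plus strand), the other D-type cyclin kinase, stood at 134, 187 and 177 CPM in AFSC, at 91.1, 146 and 152 CPM in ALSC and at 112, 161 and 157 CPM in ABSC. Library 1 was the lowest in each cell type, and at each library number the order was AFSC, then ABSC, then ALSC. Its differences from AFSC were -0.21 in ABSC (interval -0.68 to 0.25, edgeR adjusted p = 0.667) and -0.36 in ALSC (interval -0.82 to 0.11, edgeR adjusted p = 0.372), and with the block both were called, at -0.22 (edgeR adjusted p = 0.0169) and -0.37 (edgeR adjusted p = 0.000429). Cdk6 differed by 0.14 in ABSC against ALSC (interval -0.32 to 0.61).

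Cdk2 (ENSMUSG00000025358, chr10:128697939-128705031, minus strand), the partner of the E-type cyclins, stood at 101, 90.2 and 90.1 CPM in AFSC, at 107, 91.9 and 97.5 CPM in ALSC and at 105, 102 and 98.9 CPM in ABSC. The cell types overlapped, and library 1 was again the highest in each. Differences were 0.12 in ABSC against AFSC (interval -0.05 to 0.28), 0.08 in ALSC against AFSC (interval -0.09 to 0.24) and 0.04 in ABSC against ALSC (interval -0.12 to 0.21), with no call in the fits of all 9 libraries, with or without the block. Without the libraries numbered 1 it was called in ABSC against AFSC (0.16, edgeR adjusted p = 0.0161). Per kb of table length, the Cdk4 to Cdk6 ratio was 18.3, 22.4 and 21.5 in library 1 of AFSC, ALSC and ABSC and 11.9 to 14.9 in the other 6 libraries. This ratio was thus higher in library 1 of each cell type than in any library numbered 2 or 3. On the other strand, Cdk4 overlaps Tspan31 (1046 to 1244 counts) and Cdk2 overlaps Pmel (38 to 134 counts).

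In the fit of all 9 libraries without the block, neither inhibitor was called in any of the 3 comparisons. Cdkn1b, which restrains cyclin E-Cdk2 (ENSMUSG00000003031, chr6:134920401-134925513, plus strand) stood at 49.1, 34.9 and 35.8 CPM in AFSC, at 56.3, 42.2 and 41.9 CPM in ALSC and at 52.4, 33.1 and 34.4 CPM in ABSC. ALSC was the highest cell type at each library number, by less than the gap between library 1 and the others. Cdkn1b gave 0.00 in ABSC against AFSC (interval -0.45 to 0.45), 0.23 in ALSC against AFSC (interval -0.22 to 0.68, edgeR adjusted p = 0.576) and -0.23 in ABSC against ALSC (interval -0.68 to 0.22, edgeR adjusted p = 0.527). The last pair of differences was called with the block, at 0.23 (edgeR adjusted p = 0.0235) and -0.24 (edgeR adjusted p = 0.0154).

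Cdkn2a (ENSMUSG00000044303, chr4:89274471-89294653, minus strand) was the scarcest of the 10 genes, and its counts pool the INK4 and ARF products. It had 25, 44 and 32 counts in AFSC, 9, 13 and 13 in ALSC and 9, 22 and 25 in ABSC, or 1.29, 2.08 and 1.5 CPM, then 0.413, 0.679 and 0.662 CPM, then 0.442, 1.15 and 1.26 CPM. Every AFSC library was above every library of the other cell types, although AFSC 1 was only just above ABSC 3. The difference in ALSC against AFSC was -1.47 (SE 0.411, interval -2.39 to -0.56, edgeR adjusted p = 0.0603), short of the threshold, and the blocked value of -1.47 was called with an edgeR adjusted p of 0.00506. Over 16 alternatives for this comparison its adjusted p ran from 0.00393 to 0.22, and 6 of them called it. ABSC against AFSC gave -0.77 (interval -1.64 to 0.09, edgeR adjusted p = 0.312) and ABSC against ALSC 0.70 (interval -0.26 to 1.66, edgeR adjusted p = 0.341).

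Across the 10 genes, 1 was called in ABSC against AFSC, where 7.98% of all tested genes were called. In ALSC against AFSC 0 were called against 7.04% of all genes. Ccnd1, Ccne1 and Cdkn2a had an unadjusted edgeR p under 0.05 there, a looser threshold. No share of all genes was taken for it, so whether these 3 exceed that share cannot be said. Cdkn2a was also among 1706 genes called by DESeq2. In ABSC against ALSC 1 was called against 11.0%, and in the test for any difference among the 3 cell types 1 was called against 14.8%. The single gene in each case was Ccnd2 (edgeR adjusted p = 0.000146 for any difference). Groups did not overlap for 3 of the 10 genes in ABSC against AFSC (27.4% of all tested genes), 4 in ALSC against AFSC (28.5%) and 2 in ABSC against ALSC (28.9%), which are shares near those of all genes. With library number as a block, 4, 5 and 2 of the 10 were called in these comparisons, beside 19.4%, 22.2% and 28.5% of all genes, and 7 in the test for any difference, beside 37.0%. Of the 4 in ABSC against AFSC, 2 rose (9.58% of all genes) and 2 fell (9.78%).

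**Figure D3:**
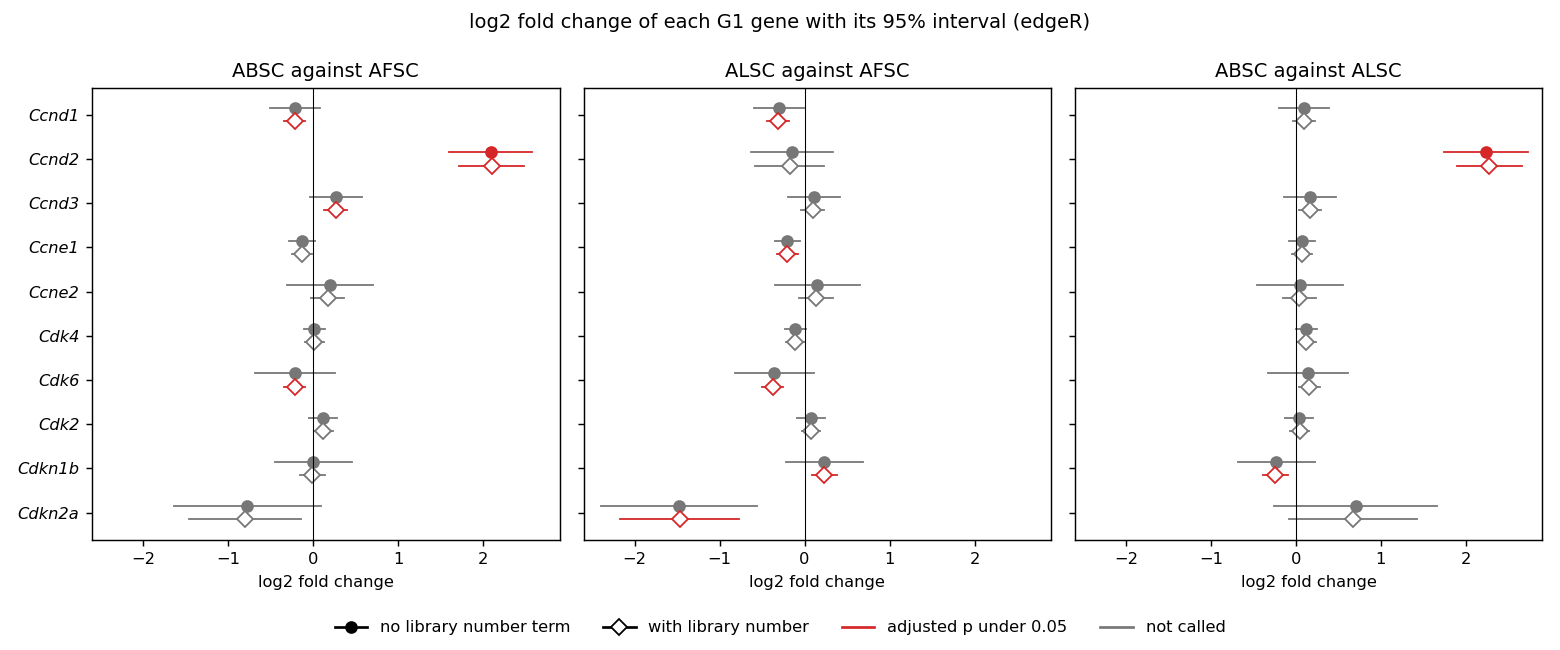
Log2 fold change of each of the 10 genes (horizontal axes) with its 95% interval in the 3 comparisons, from edgeR without a library number term (circles) and with library number as a block (diamonds). Red marks an adjusted p under 0.05. Ccnd2 in ABSC lies at 2.09 (circle) and 2.10 (diamond) against AFSC, and at 2.24 and 2.28 against ALSC. The other estimates of both fits lie between -1.47 and 0.70.

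The order of the 10 levels per kb of table length began with Cdk4, Ccne1, Ccnd1 and Cdk2 in each cell type, each above the next in every library. In AFSC these levels were 164, 63.7, 39.6 and 15.1 CPM per kb. Ccnd2 was the ninth of 10 in AFSC and ALSC, at 3.53 and 3.18 CPM per kb, and the fifth in ABSC, at 15.0, just below Cdk2 at 16.4. It was above the next gene in every library in each cell type. Neighbours whose order was not the same in every library were Ccne2 and Cdkn1b in AFSC, and Ccne2, Cdkn1b, Cdk6 and Ccnd3 in ALSC and ABSC. In AFSC the ranges of Cdk6 and Ccne2 overlapped, although Cdk6 was higher in each library. Cdkn2a was last in each, at 1.39, 0.499 and 0.813 CPM per kb in AFSC, ALSC and ABSC. Per kb of principal transcript, Cdk4 and Ccne1 were again first and Cdkn2a last in each cell type, and Ccnd2 was the ninth in AFSC and ALSC and the sixth in ABSC.

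Most of the 10 genes also differed with the library number. In the fit with cell type and number, 7 of the 10 differed between libraries numbered 1 and those numbered 2 and 3, beside 34.7% of all tested genes. Cdkn1b was higher in number 1 by 0.51 (SE 0.0579, edgeR adjusted p = 1.63e-05), Ccnd3 by 0.32 (SE 0.0540, edgeR adjusted p = 0.000415) and Cdk2 by 0.14 (SE 0.0449, edgeR adjusted p = 0.0297). Lower in number 1 were Ccne2 at -0.56, Cdk6 at -0.55, Ccnd1 at -0.31 and Cdkn2a at -0.80, with edgeR adjusted p-values of 0.000154, 3.46e-06, 0.000379 and 0.0474. The effect of number differed between cell types for 1 of the 10, Ccnd2, beside 8.65% of all genes. Each of the 7 genes had number 1 as its highest or its lowest library in all 3 cell types. They were picked by this contrast in the same libraries, so that position is no separate support for it. Ccnd2, which was not called, also had number 1 as its highest library in each cell type. For 6 of the 7 called genes, all but Cdkn2a, the estimate was larger in size than any of the gene's 3 estimated differences between cell types. The labels do not say what the number stands for, and its part in the differences between cell types was not tested beyond the block and the fits without number 1. Without the libraries numbered 1, 6, 7 and 3 of the 10 genes were called in ABSC against AFSC, ALSC against AFSC and ABSC against ALSC, beside 28.5%, 25.4% and 32.2% of 16224 tested genes. In ABSC against AFSC these were Ccnd2 (2.16), Ccne2 (0.33), Ccnd3 (0.23), Cdk2 (0.16), Cdk6 (-0.19) and Ccnd1 (-0.15). In ALSC against AFSC they were Cdkn1b (0.25), Ccne2 (0.24), Ccne1 (-0.13), Ccnd1 (-0.23), Cdk6 (-0.29), Ccnd2 (-0.41) and Cdkn2a (-1.41). In ABSC against ALSC they were Ccnd2 (2.57), Ccnd3 (0.21) and Cdkn1b (-0.31).

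**Figure D4:**
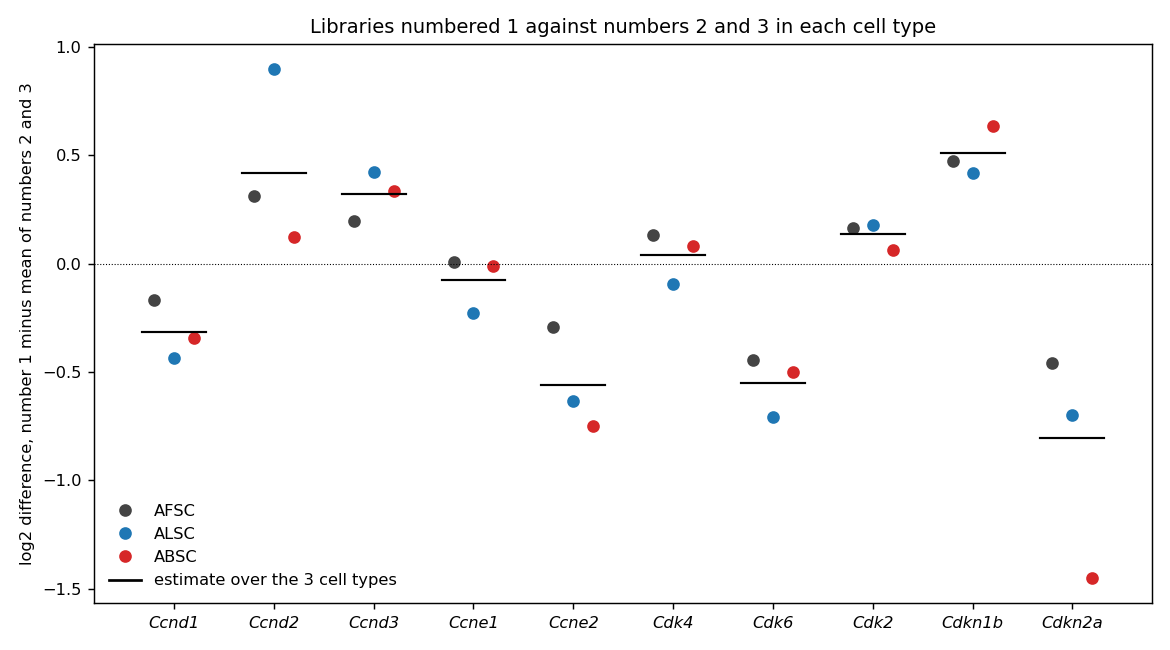
Log2 difference of library 1 from the mean of libraries 2 and 3 (vertical axis) for each of the 10 genes, as a point for each cell type, with a bar for the estimate over the 3 cell types. Cdk6 lies at -0.71 to -0.45 and Cdkn1b at 0.42 to 0.63 in the 3 cell types, while Ccnd2 lies at 0.90 in ALSC and at 0.31 and 0.12 in AFSC and ABSC.

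The wider machinery around these genes was counted in 6 lists. Of 13 pocket proteins and E2F factors, 1 rose in ABSC against AFSC, where 3.98% of all tested genes rose. This was E2f1, an activator of S phase genes, from 34.3, 37.1 and 37.6 CPM to 46.1, 45.9 and 43.7 CPM (0.32, edgeR adjusted p = 0.0244). It was called in 10 of 16 alternatives, and lost without the filter or without AFSC 1, AFSC 2, AFSC 3, ABSC 2 or ABSC 3. Of 25 S phase entry genes, 2 rose in ABSC against AFSC, beside 3.98% of all tested genes that rose there. The median over the list was 0.18 and that over all tested genes -0.004. These were Mcm6, a subunit of the replicative helicase (0.34, edgeR adjusted p = 0.0021), and Cdc45, its activator (0.28, edgeR adjusted p = 0.0429). With the block 11 of the 25 rose in ABSC against AFSC and 0 fell, 6 rose and 2 fell in ALSC against AFSC, and 10 were higher and 0 lower in ABSC than in ALSC. Over all genes, the blocked fit called 9.58% higher in ABSC against AFSC and 14.2% higher in ABSC than in ALSC. In ALSC against AFSC it called 11.1% higher and 11.1% lower. Of the 13 pocket proteins and E2F factors, the block called 3 higher and 2 lower in ABSC against AFSC, beside 9.58% and 9.78%. Of 11 genes of mitosis it called 0 there, and 2 higher and 5 lower in ABSC than in ALSC, beside 14.2% and 14.3%. Without the block Mcm6 also rose in ALSC against AFSC (0.22). Mcm6 was called in ABSC against AFSC in 16 of 16 alternatives and Cdc45 in 6. Of the 25, 13 were lower in libraries numbered 1, beside 16.4% of all genes, and 1 was higher, beside 18.2%.

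Among 5 other CDK inhibitors, 4 were tested. Cdkn1a, at means of 198, 139 and 148 CPM in AFSC, ALSC and ABSC, was not called without the block. With the block it was called lower than in AFSC both in ABSC (edgeR adjusted p = 0.00197) and in ALSC (edgeR adjusted p = 0.000946). Cdkn2b, an INK4 inhibitor next to Cdkn2a in the genome, fell in ALSC from 2.21 to 1.07 CPM (-1.04, edgeR adjusted p = 0.0365), a call kept in 7 of 16 alternatives, and was higher in ABSC, at 2.63 CPM, than in ALSC (1.29, edgeR adjusted p = 0.00982). Cdkn1c, an inhibitor of the same family as Cdkn1b, was lower in ABSC than in ALSC (-0.94, edgeR adjusted p = 0.0274). ALSC 1, at 70.4 CPM, stood above the other ALSC libraries at 34.8 and 38.6 CPM, and the blocked call for Cdkn1c was lost at an edgeR adjusted p of 0.0907.

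Of 10 Myc network and Wnt pathway factors, which include both activators and repressors of transcription, 1 fell in ABSC against AFSC, 1 rose and 2 fell in ALSC against AFSC, and 2 were higher and 1 lower in ABSC than in ALSC. Of the 16178 tested genes, 647 fell in ABSC against AFSC. Among all tested genes, 3.54% rose and 3.50% fell in ALSC against AFSC. In ABSC against ALSC 5.41% of them were higher and 5.56% lower. Myc stood at 98.4, 112 and 116 CPM in AFSC, at 47.1, 65.3 and 57.2 CPM in ALSC and at 105, 126 and 110.5 CPM in ABSC. ALSC lay below both others without overlap, so Myc fell in ALSC (-0.94, edgeR adjusted p = 0.00217) and was higher in ABSC than in ALSC (1.01, edgeR adjusted p = 0.000724). Lef1, a Wnt effector, fell in both derived cell types, with -1.19 in ABSC and -1.40 in ALSC on the log2 scale.

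Among 14 genes that turn over or regulate cyclin-kinase complexes, 2 rose in ABSC against AFSC and 1 fell in ALSC against AFSC. In ABSC against ALSC 3 were higher. Over all genes, 3.98% rose in ABSC against AFSC, 3.50% fell in ALSC against AFSC and 5.41% were higher in ABSC than in ALSC. Mnat1, a subunit of the kinase that activates CDKs, rose in ABSC against AFSC by 0.27, and Pkmyt1, an inhibitory kinase, by 0.33. These calls held in 9 and 10 of 16 alternatives, and both were lost with library size only, with no filter, and without AFSC 2, AFSC 3, ABSC 2 or ABSC 3. Cks1b, a cofactor in the degradation of Cdkn1b, fell in ALSC against AFSC (-0.26) and was higher in ABSC than in ALSC (0.28). Of the 11 genes of mitosis, 2 rose and 2 fell in ALSC against AFSC, beside 3.54% and 3.50% of all genes. In ABSC against ALSC 2 were lower, beside 5.56%. In ALSC against AFSC, Ccnb2 (0.39) and Top2a (0.30) rose and Cdc20 (-0.33) and Ccnf (-0.29) fell. The estimates for the mitotic list in ABSC against AFSC ran from -0.15 to 0.09. Calls of genes in the 6 lists that held in 16 of 16 alternatives were those of Mcm6 and Lef1 in ABSC against AFSC, Myc and Lef1 in ALSC against AFSC, and Cdkn2b and Myc in ABSC against ALSC. The other list genes kept their calls in 6 to 15 of 16.

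The genes whose levels followed each D-type cyclin most closely over the 9 libraries were found by Pearson's r of log2 CPM, among 9336 other genes with a mean of at least 10 CPM. These values describe 9 libraries that share depth, library number and cell type, and carry no test. For Ccnd2 they were Ripk2, a kinase of innate immune receptors (r = 0.994), Unc5b, a netrin receptor (r = 0.992), and Vgll4, a cofactor of TEAD factors (r = 0.985). Unc5b averaged 261 CPM in ABSC, 116 in AFSC and 104 in ALSC, and Vgll4 averaged 20.5, 10.8 and 10.8 CPM in the same order. For Ccnd1 they were Surf6, a nucleolar protein (r = 0.981), Morc2a (r = 0.980) and the non-coding host gene Snhg5 (r = 0.977). For Ccnd3 they were Adam10, a membrane protease (r = 0.976), Nampt, an enzyme of NAD synthesis (r = 0.969), and Kif21b, a kinesin (r = 0.968).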

How the data were processed

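The 9 libraries were made from poly-T selected RNA with an unstranded kit, per the labels' protocols, and sequenced as read pairs of 150 bases, per the series record. The deposited values are raw counts per gene, and per the submitters' processing notes the reads went through HISAT2 2.0.5 and featureCounts 1.5.0-p3 with build mm9. The other column used, gene length, is the authors' value from the same table. Gene coordinates in the table equal those of GENCODE M21 (GRCm38) for 98.33% of shared IDs and are given as GRCm38. The 346 entries without an Ensembl ID held 0.208% to 0.227% of counts and were left out.

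Counts were tested in R 4.3.3 with edgeR 4.0.16 (TMM, filterByExpr with minimum count 10 and minimum total 15, robust quasi-likelihood F test, 2-sided, Benjamini-Hochberg over 16178 genes, threshold 0.05). All 9 libraries entered 1 fit with group means, so 6 residual degrees of freedom remained. TMM factors were 0.963 to 1.06, and the pooled biological coefficient of variation was 0.147. Scripts were tested on simulated counts. The D-type cyclin shares were computed per kb of gene length, without a test. Alternatives were other scalings, no filter, DESeq2 1.42.0, library number as a block, only the groups compared, and each library or all libraries numbered 1 left out. The principal transcript length was added after the data were seen.

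The labels give the library numbers without saying what they stand for. Deviations from the group means, over genes at 10 CPM or more, correlated at 0.627 to 0.735 for number 1, 0.436 to 0.562 for number 2 and 0.482 to 0.623 for number 3, and at -0.667 to 0.556 between different numbers. The same-number values are all above 0.1, so the number was fitted as a block. Between numbers 2 and 3 the correlations were 0.446 to 0.556, within the range of libraries that shared number 2. Only number 1 stood apart, and the values do not show that numbers 2 and 3 each pair libraries. The block is read from the data and not from the design.

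The 10 genes and the wider lists were chosen with earlier results of these data known. The text names the 10 genes, up to 4 called genes per list with the largest change at a mean of 1 CPM or more, and the 3 closest correlates of each D-type cyclin. Not every such list gene is given. Protein sequences were not used here. Sequences were read from GENCODE M21 transcripts and annotation.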

Additional observations from a re-analysis of the deposited data

Results flagged for a closer look

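The difference of library 1 from libraries 2 and 3 was not the same in the 3 cell types for Ccnd2. It was 0.31 on the log2 scale in AFSC, 0.90 in ALSC and 0.12 in ABSC, and the interaction of cell type with library number had an edgeR adjusted p of 3.44e-05. Ccnd2 was the highest in library 1 of each cell type (38.2 CPM in AFSC, 43.3 in ALSC and 149 in ABSC), so the difference was one of size. It was the only one of the 10 genes whose interaction passed the threshold, beside 8.65% of all tested genes. The other 9 had adjusted p-values from 0.0808 to 0.615. The values rest on 1 library numbered 1 in each cell type, with the spread taken from libraries 2 and 3.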

How the results depend on the processing

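Ccnd2 in ABSC kept its direction and call against AFSC and against ALSC in all 16 alternatives of each, and the values were 2.02 to 2.20 and 2.08 to 2.61. Library number as a block raised the genes called from 1291 to 3132 in ABSC against AFSC, from 1139 to 3590 in ALSC against AFSC, from 1775 to 4605 in ABSC against ALSC and from 2395 to 5992 for any difference. The members called rose from 1, 0, 1 and 1 to 4, 5, 2 and 7. Without the low-count filter, with DESeq2 and in the fit of only the 2 groups, 1 member was called in ALSC against AFSC, namely Cdkn2a. These settings called 1226, 1706 and 1022 genes there. Without the filter 2 members and 2596 genes were called for any difference, and the fit of only 2 groups called 1041 genes in ABSC against ALSC. Leaving out 1 library gave 667 to 1723, 345 to 1522, 846 to 2337 and 1395 to 3048 genes called, and 1, 0 to 1, 1 and 1 to 2 members, in the same order. Without the 3 libraries numbered 1 the counts were 4622, 4122, 5225 and 7121 genes and 6, 7, 3 and 9 members, and the cause was not tested. Among the fits with 1 library left out, the lowest counts came without AFSC 3, AFSC 3, ABSC 2 and ABSC 2. The highest came without ALSC 1, ABSC 1, ABSC 1 and ABSC 1, and the reason was not tested. The number 1 contrast called 4038 to 5986 genes and 5 to 7 members. With library size only, 35.1% of the called genes were higher in ABSC than in ALSC (615 higher and 1135 lower) against 49.3% with TMM (875 and 900), and 60% were higher in ALSC than in AFSC (666 and 444) against 50.3% (573 and 566), while the median of all genes stayed within 0.1.

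With no length correction, the D-type cyclin shares of Ccnd1, Ccnd2 and Ccnd3 were 67.1%, 11.98% and 20.9% in AFSC, 62.0%, 12.3% and 25.7% in ALSC and 43.2%, 38.0% and 18.8% in ABSC. Per kb of principal transcript, Ccnd1 and Ccnd3 had 60.4% and 33.3% in AFSC and 54.2% and 39.5% in ALSC, and the 3 genes had 43.7%, 22.7% and 33.6% in ABSC. Leaving out 1 library moved the ABSC share of Ccnd2 between 24.8% and 27.4%.

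Differences that were not called changed sign as follows, each given with the range over single libraries left out. In ABSC against AFSC, Cdk4 (-0.0081 to 0.063) was -0.0086 with library size only, -0.00089 without AFSC 2, -0.0081 without AFSC 3 and -0.0073 without ABSC 1. Cdkn1b (-0.24 to 0.18) was -0.018 with library size only, -0.0099 with the block, -0.084 without AFSC 2, -0.067 without AFSC 3, -0.24 without ABSC 1, -0.063 without all libraries numbered 1 and -0.0015 in the fit of only the 2 groups. In ALSC against AFSC, Ccnd3 (-0.05 to 0.19) was -0.049 without ALSC 1, and Ccnd2 (-0.52 to 0.01) was 0.0099 without ALSC 2 and passed the threshold without ALSC 1, at -0.52. In ABSC against ALSC, library size only gave -0.019 for Ccne2 and -0.029 for Cdk2. Without ALSC 1, Ccnd1 (-0.04 to 0.20) was -0.035, Ccne2 (-0.14 to 0.27) -0.13 and Cdk6 (-0.05 to 0.30) -0.052. Cdk2 (-0.0012 to 0.11) was -0.0012 without ALSC 2, and Ccne2 was -0.14 without ABSC 3. Cdk4 in the number 1 contrast (-0.0085 to 0.10) was -0.0085 without AFSC 1. Depth limits Cdkn2a most, at 9 to 44 counts per library.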
